A study of Sus scrofa with 9 samples.

Results

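The UBE2 genes encode ubiquitin-conjugating enzymes and the USP genes encode the largest family of ubiquitin-removing peptidases. Both families were followed through pig spermatogenesis in RNA-seq libraries of testicular cells. Every gene of the deposited count table whose symbol begins with UBE2 and a letter, or with USP and a digit, was taken as a member. The rule found 76 of 22342 gene identifiers, 29 in the UBE2 family and 47 in the USP family, and all 76 passed the filter on low counts that left 16802 genes to test. One of the 47, USP6NL, carries a USP symbol but encodes a GTPase-activating protein of RAB proteins and not a peptidase. Other family symbols of the RefSeq pig annotation, among them UBE2F, UBE2G1, UBE2L3, UBE2N, UBE2U, USP26 and USP32, were not analysed here.

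Ubiquitin is activated by an E1 enzyme, passed to the active-site cysteine of an E2 (the UBE2 proteins) and placed on a substrate with the help of an E3 ligase, while deubiquitinases such as the USP proteins cut it off again. In the testis this cycle marks histones around meiosis, when unpaired sex chromosomes are silenced, and after meiosis, when histones are replaced. Male mice without Ube2b, Ube2j1 or Usp2 have defects in sperm formation or function.

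The source was pig testis, with no treatment or engineered allele in the labels, divided into 3 stages of germ cell development. Spermatogonia (SPG) divide by mitosis, spermatocytes (SPY) go through meiosis, and round spermatids (RS) are the haploid products. Each stage had 3 libraries of total RNA, numbered 1 to 3 for SPG and RS and 2 to 4 for SPY. The labels speak of biological samples but give no animal, age or purification method, so the p-values rest on the scatter of 3 libraries a stage, and that scatter may be technical.

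Totals of estimated counts per library lay between 47963279 and 64639201. The 3 SPG libraries differed little more than counting alone would give, with a median chi-square per gene of 0.794 to 0.846 against 0.455 for pure sampling, while pairs of SPY libraries gave 3.96 to 8.06. RS 2 stood apart from RS 1 and RS 3, at 19.1 and 20.5. Markers did not keep to their labels. The 10 spermatid markers summed to 37539 to 47938 TPM (a level that takes transcript length into account) in RS, but also to 18029 to 18247 TPM in SPG and 3167 to 10905 TPM in SPY. The 10 spermatocyte markers summed to 1535 to 1562 TPM in SPG, 2043 to 2362 TPM in SPY and 382 to 552 TPM in RS, and the 8 markers of undifferentiated spermatogonia that were found summed to 43.6 to 46.3, 2.96 to 3.69 and 37.8 to 38.8 TPM in the same order, with NANOS2 at 0 in SPY. ID4 alone averaged 32.4 TPM in RS, against 0.509 TPM in SPG, while UCHL1 averaged 1.58 TPM in RS, against 30 TPM in SPG. By the test given below, 5 spermatocyte markers were higher and 4 lower in SPY against SPG (29.3% and 44% of all genes). For spermatid markers in RS against SPG these numbers were 5 and 3 (39.5% and 39.7% of all genes). PRM1 alone averaged 29204 TPM in RS against 10943 TPM in SPG, while ACRV1 averaged 95.7 against 343 TPM. Somatic markers were also present. The 8 smooth muscle markers summed to 24.7 to 26.3 TPM in SPG, 10.4 to 17.9 TPM in SPY and 3630 to 5201 TPM in RS, the 10 Sertoli markers to 40.0 to 42.0, 10.5 to 18.4 (AMH at 0) and 106 to 146 TPM, and the 6 Leydig markers found to 579 to 611, 1.44 to 2.59 and 23.7 to 53.0 TPM. Endothelial markers (5 found) and leukocyte markers (7) were highest in RS, at 57.8 to 108 and 17.5 to 20.1 TPM, while the 3 erythrocyte markers found reached at most 2.17 TPM. The part of these cells in the results that follow was not tested, and the stage names are the labels' own.

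More members were called higher than lower in spermatocytes against spermatogonia, and the USP family in particular had most of its calls lower in round spermatids against spermatocytes. Levels are given as CPM, counts scaled to 1000000 per library after edgeR's TMM factors, and a gene was called when its Benjamini-Hochberg adjusted p in edgeR's quasi-likelihood test over all genes was below 0.05. In SPY against SPG, 17 of 29 UBE2 members (58.6%) were called higher and 9 (31.0%) lower, and 24 of 47 USP members (51.1%) were called higher and 15 (31.9%) lower. Of all genes tested, 29.3% were called higher and 44% lower, 73.4% in all. In RS against SPY, 13 UBE2 members (44.8%) were called higher and 14 (48.3%) lower, and 13 USP members (27.7%) were called higher and 28 (59.6%) lower, where 42.7% of all genes were called higher and 36.4% lower, 79.2% in all. In RS against SPG, 13 UBE2 members (44.8%) were higher and 9 (31.0%) lower, and 12 USP members (25.5%) were higher and 19 (40.4%) lower, where 39.5% of all genes were higher and 39.7% lower. The 17 higher UBE2 members in SPY against SPG numbered 11 without SPG 1, 10 without SPG 2, 11 without SPG 3 and 11 without SPY 2. Without RS 2, the RS against SPY counts were 12 higher and 14 lower for UBE2, and 12 higher and 29 lower for USP. In bulk RNA, fewer cells of a type and less RNA per cell cannot be told apart.

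The medians depended on how the libraries were scaled, so they are best read beside the median of all genes. That median was -0.32 on the log2 scale for SPY against SPG, -0.14 with DESeq2's kind of size factors (RLE) and -0.74 with library totals alone. With TMM the UBE2 median of the same comparison was 0.32 and the USP median 0.39. Both lay below 0 with library totals alone (-0.10 and -0.03) and on log2(TPM + 1) values (-0.21 and -0.13). The distance from the median of all genes kept its sign under these scalings. It was 0.64 for UBE2 and 0.71 for USP with TMM, 0.65 and 0.71 with library totals, and 0.32 and 0.40 on log2(TPM + 1) values. In RS against SPY the USP median was -0.85, which is 1.04 below that of all genes at 0.19, and the distance was -1.03 with library totals and -0.88 with TPM. The UBE2 median was -0.11, and 0.34 with library totals alone.

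The share of higher calls moved with the scaling as well. In SPY against SPG, 65.4% of the called UBE2 members and 61.5% of the called USP members were higher, against 40.0% of all called genes. These shares were 47.1%, 54.3% and 26.8% with library totals alone, and on log2(TPM + 1) values the USP share was 46.7%, beside 24.6% of all called genes. In RS against SPG, 59.1% of called UBE2 members, 38.7% of called USP members and 49.9% of all called genes were higher. On log2(TPM + 1) values these shares were 36.4%, 11.8% and 33.0%, so all genes shifted in the same direction. Calls that held under every alternative run are therefore given separately. The share of all called genes that held is not given, so these counts show nothing particular to the families. For SPY against SPG these were 8 of the 17 higher and 5 of the 9 lower UBE2 members, and 14 of the 24 higher and 9 of the 15 lower USP members. In RS against SPY they were 9 of 13 higher and 11 of 14 lower UBE2 members, and 10 of 13 higher and 25 of 28 lower USP members. The fewest USP calls held in RS against SPG, with 4 of 12 higher and 10 of 19 lower members, beside 8 of 13 higher and 8 of 9 lower UBE2 members.

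**Figure D1:**
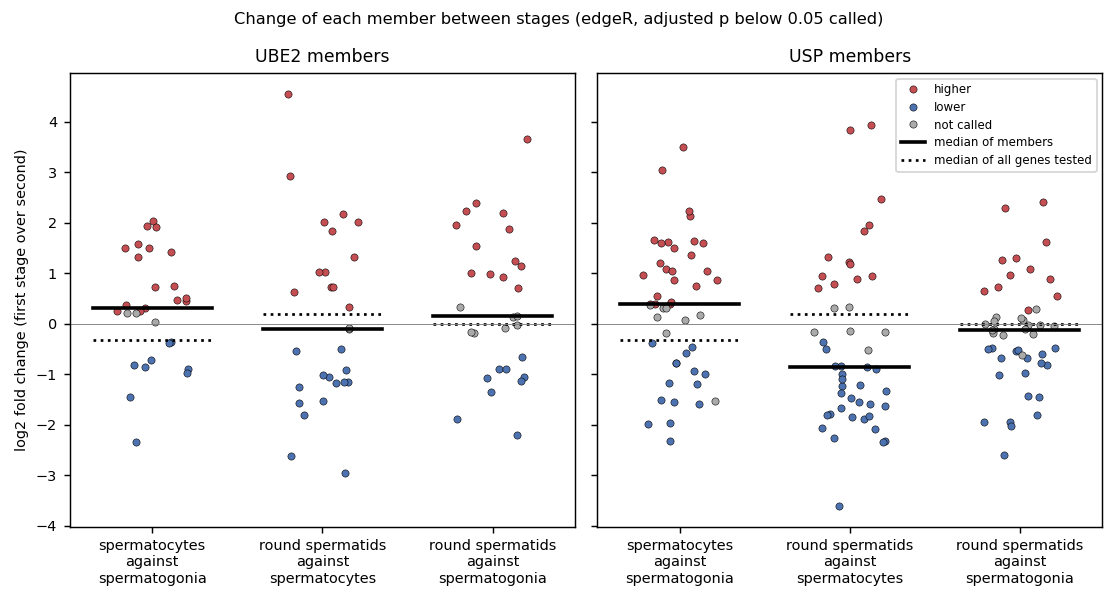
Each point is a member, placed by its log2 fold change (vertical axis) in each of the 3 comparisons (horizontal axis), for the 29 UBE2 members (left) and 47 USP members (right). Solid bars are member medians and dotted bars the medians of all 16802 genes; the USP median of -0.85 in round spermatids against spermatocytes lies furthest from its dotted bar. The sign of the medians for spermatocytes against spermatogonia turned to -0.10 (UBE2) and -0.03 (USP) with library totals alone.

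SPY was the most frequent stage of highest mean CPM in both families. Of the UBE2 members, 5 were highest in SPG, 13 in SPY and 11 in RS, and of the USP members, 12, 26 and 9. Over all genes tested the numbers were 5438 (32.4%), 4697 (28.0%) and 6667 (39.7%), so SPY held 44.8% of the UBE2 and 55.3% of the USP members against 28.0% of all genes. Summed over members, UBE2 transcripts made up 2531 ± 38.0 CPM in SPG, 3467 ± 170 CPM in SPY and 2679 ± 40.9 CPM in RS (mean ± SD, n = 3 libraries). The USP sum was 4473 ± 43.3, 6861 ± 453 and 2896 ± 178 CPM in the same stages. In TPM the sums in SPY were close to those in SPG and above the mean in RS. Besides length, TPM differs from CPM in carrying no TMM factor (0.774 to 0.853 in SPY, 1.09 to 1.10 in SPG). The UBE2 sum was 3958 ± 44.9 TPM in SPG, 4187 ± 130 TPM in SPY and 2909 ± 888 TPM in RS, and the USP sum 2765 ± 34.5, 2805 ± 269 and 1256 ± 293 TPM. Within RS, library 2 gave 3931 TPM of UBE2 transcripts against 2468 and 2328 TPM in the other two libraries.

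**Figure D2:**
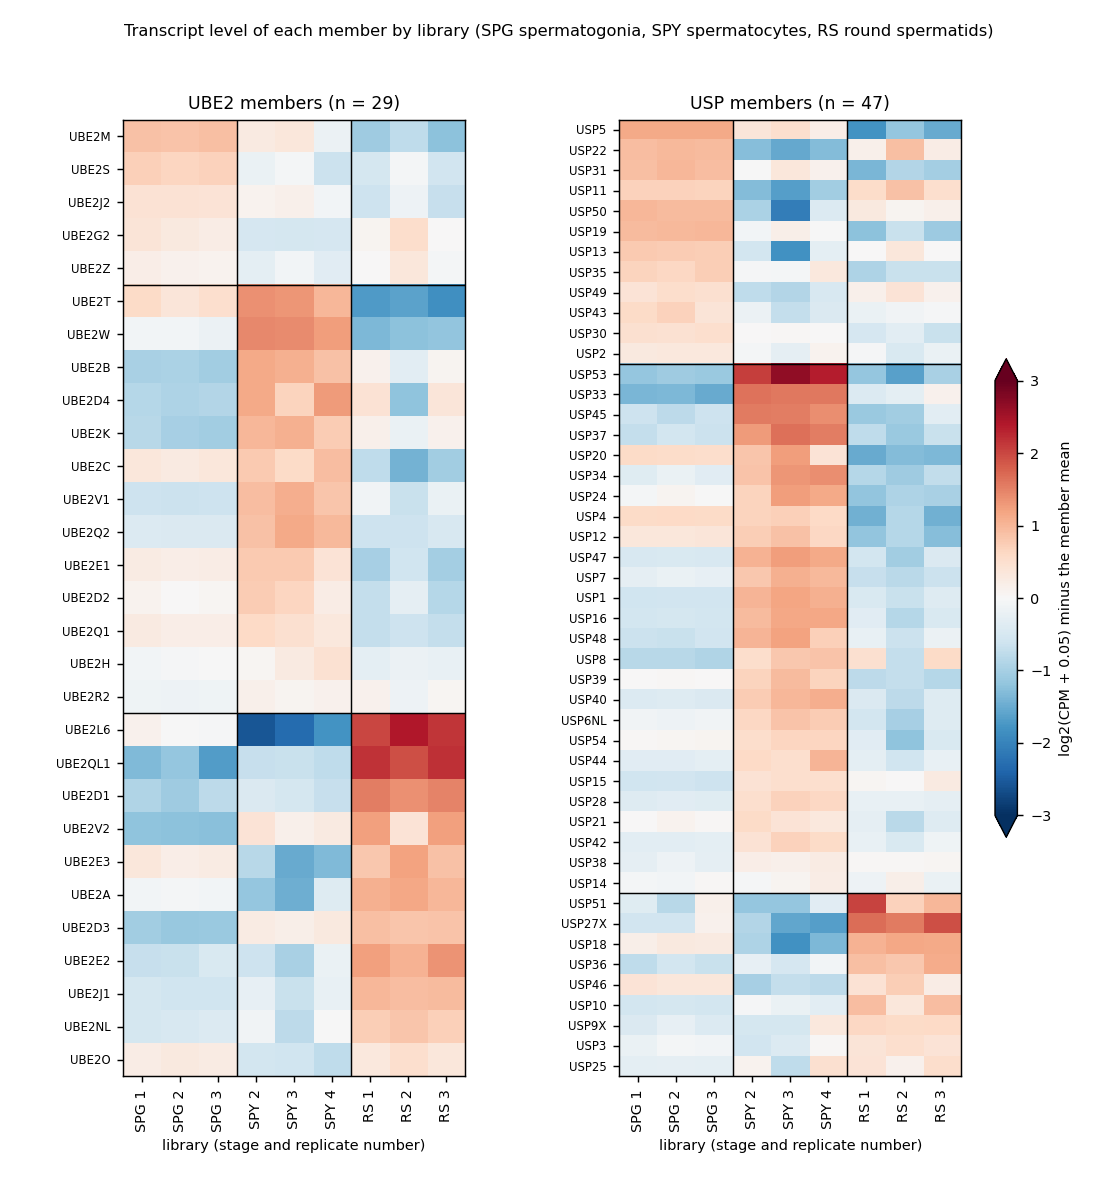
Log2(CPM + 0.05) of every member minus its own mean over the 9 libraries (colour), with libraries in columns by stage and members in rows, grouped by the stage of highest mean. The block highest in spermatocytes holds 13 UBE2 and 26 USP members, and within a stage most rows keep 1 colour across the 3 libraries.

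Among the UBE2 enzymes of DNA damage and chromatin, 4 of 5 listed members were called higher in SPY against SPG and 1, UBE2A, lower, where 29.3% of all genes were higher and 44% lower. UBE2B and UBE2A are the mammalian counterparts of yeast Rad6 and ubiquitinate histone H2B and the clamp protein PCNA. UBE2B (chromosome 2) had 47.2, 48.0 and 45.1 CPM in SPG, 204, 196 and 172 CPM in SPY, and 102, 74.9 and 99.1 CPM in RS. All SPY libraries lay above all RS libraries, and these above all SPG libraries. The log2 fold change of UBE2B was 2.03 ± 0.14 (SE, edgeR, adjusted p = 1.24e-06) in SPY against SPG and -1.05 ± 0.13 (edgeR, adjusted p = 2.95e-05) in RS against SPY. UBE2A, on the X chromosome, had 30.1, 30.5 and 30.1 CPM in SPG, 14.2, 11.4 and 24.2 CPM in SPY, and 66.4, 71.5 and 63.3 CPM in RS. Its SPY libraries were the lowest and its RS libraries the highest, with no overlap between stages. UBE2A changed by -0.86 ± 0.23 (edgeR, adjusted p = 0.00576) in SPY against SPG, a call lost when the test was made against a 1.5-fold change, and by 2.01 ± 0.23 (edgeR, adjusted p = 1.49e-05) in RS against SPY.

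The ratio of UBE2B to UBE2A per length made this opposition visible within each library. It was 1.59, 1.60 and 1.52 in SPG, 14.6, 17.4 and 7.21 in SPY, and 1.56, 1.07 and 1.59 in RS. The ratio was 7.79-fold higher in SPY than in SPG. The exact two-sided permutation p was 0.1, which is the smallest that 3 against 3 libraries allow.

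UBE2V1 and UBE2V2 are inactive E2 variants that pair with UBE2N to build lysine-63 chains, and UBE2T is the E2 of the Fanconi anaemia pathway of DNA crosslink repair. UBE2V1 had 134, 131 and 134 CPM in SPG, 392, 433 and 363 CPM in SPY and 191, 129 and 178 CPM in RS. UBE2V2 had 13.5, 13.2 and 13.1 CPM in SPG, 41.2, 34.5 and 37.7 CPM in SPY and 73.3, 41.6 and 73.1 CPM in RS. Both were higher in SPY against SPG, by 1.57 ± 0.15 (edgeR, adjusted p = 6.84e-06) for UBE2V1 and 1.51 ± 0.20 (edgeR, adjusted p = 6.81e-05) for UBE2V2, but in RS against SPY they moved apart. UBE2V1 was lower by log2 -1.25 ± 0.15, while UBE2V2 was higher by 0.73 ± 0.19 (edgeR, adjusted p = 0.00546). The UBE2V2 call was lost against a 1.5-fold change and with replicate number added to the fit. The TPM ratio of UBE2V1 to UBE2V2 was 4.73 to 4.89 in SPG, 4.55 to 5.99 in SPY and 1.16 to 1.49 in RS. UBE2T had 19.3, 16.9 and 18.5 CPM in SPG, 33.5, 32.8 and 26.0 CPM in SPY and 3.98, 4.23 and 3.61 CPM in RS. The RS libraries were the lowest by far, with a log2 change of -2.96 ± 0.14 (edgeR, adjusted p = 2.71e-08) in RS against SPY. The rise of UBE2T in SPY against SPG (0.76 ± 0.13) did not stay past the threshold with library totals alone, on TPM values or against a 1.5-fold change.

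The UBE2D and UBE2E enzymes work with many E3 ligases, and their paralogs took different courses. UBE2D3 had 183, 172 and 173 CPM in SPG, 445, 424 and 458 CPM in SPY and 707, 665 and 682 CPM in RS. Each stage lay above the one before, with changes of 1.33 ± 0.09 (edgeR, adjusted p = 1.43e-06) in SPY against SPG and 0.63 ± 0.09 (edgeR, adjusted p = 8.04e-05) in RS against SPY, the second call being lost against a 1.5-fold change. UBE2D1 had 2.59 to 3.20 CPM in SPG, 3.41 to 4.10 CPM in SPY and 14.4 to 16.0 CPM in RS, a log2 change of 2.01 ± 0.14 (edgeR, adjusted p = 3.12e-07) in RS against SPY. Its call in SPY against SPG (0.38 ± 0.14) was lost in 10 alternatives and turned to -0.05 with library totals alone. UBE2D2 had 96.2, 91.1 and 93.8 CPM in SPG, 153, 141 and 105 CPM in SPY, and 54.7, 74.5 and 49.9 CPM in RS, lower in RS against SPY by log2 -1.15 ± 0.18 (edgeR, adjusted p = 0.000131). The TPM ratio of UBE2D2 to UBE2D3 was 6.38 to 6.57 in SPG, 2.77 to 4.18 in SPY and 0.888 to 1.36 in RS. Of the summed TPM of the 4 UBE2D genes, UBE2D3 made up 11.5% to 11.8% in SPG, 14.6% to 18.0% in SPY and 37.2% to 38.2% in RS. UBE2D2 and UBE2D4 have very short gene models, 0.08 and 0.07 of the median length, which raises their TPM. UBE2D4 had 13.3 to 14.1 CPM in SPG, 40.6 to 61.5 CPM in SPY and 34.6, 11.0 and 32.5 CPM in RS, with RS 2 below the SPG libraries. UBE2NL, named for its likeness to UBE2N and also with a short model (0.07), was the UBE2 member of highest TPM in RS, at 592 TPM on average, and had 33.1 to 35.9, 27.7 to 47.1 and 78.8 to 85.3 CPM in stage order. UBE2E1 was highest in SPY, at 159 to 208 CPM, and lowest in RS, at 58.7 to 79.7 CPM. UBE2E2 had 0.864 to 1.04 CPM in SPG, 0.704 to 1.25 CPM in SPY and 3.02 to 3.75 CPM in RS. UBE2E3 went the other way from UBE2D2. It had 21.8, 19.5 and 20.4 CPM in SPG, 9.63, 5.99 and 6.77 CPM in SPY, and 30.1, 39.5 and 31.4 CPM in RS, lowest in SPY in every library, with 2.17 ± 0.19 (edgeR, adjusted p = 1.56e-06) in RS against SPY.

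UBE2W, which attaches ubiquitin to the amino terminus of proteins, and UBE2K, which builds lysine-48 chains, peaked in SPY. UBE2W had 42.7, 42.9 and 39.8 CPM in SPG, 124, 121 and 108 CPM in SPY, and 17.8, 19.4 and 19.8 CPM in RS. No 2 stages overlapped, and the log2 change of -2.63 ± 0.11 in RS against SPY had the lowest adjusted p of the family there (edgeR, adjusted p = 9.49e-09). UBE2K had 30.3, 27.0 and 26.1 CPM in SPG, 107, 113 and 92.5 CPM in SPY, and 60.3, 47.2 and 58.8 CPM in RS, with 1.91 ± 0.13 (edgeR, adjusted p = 1.48e-06) in SPY against SPG. UBE2Q2 was also highest in SPY, at 153 to 155 CPM in SPG, 380 to 452 CPM in SPY and 133 to 147 CPM in RS, and was not called in RS against SPG. Smaller differences were called for UBE2H, UBE2Q1 and UBE2R2, at 78.9 to 104, 127 to 153 and 241 to 253 CPM in SPY against 71.5 to 74.3, 116 to 122 and 206 to 209 CPM in SPG. Those 3 calls were lost in 10, 13 and 14 alternatives, and UBE2R2, at 230 ± 23.4 CPM in RS, was not called in RS against SPY (edgeR, adjusted p = 0.35). UBE2QL1 was low, at 0.249 to 0.378 CPM in SPG, 0.516 to 0.552 CPM in SPY and 3.65 to 4.34 CPM in RS, yet its change of 3.65 ± 0.21 (edgeR, adjusted p = 1.42e-07) was the largest of the UBE2 family in RS against SPG.

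UBE2C starts and UBE2S extends lysine-11 chains for the anaphase-promoting complex, and they differed. UBE2S had 468, 445 and 462 CPM in SPG, 247, 275 and 182 CPM in SPY, and 199, 273 and 193 CPM in RS. SPG stood above both later stages, by -0.97 ± 0.17 (edgeR, adjusted p = 0.000564) in SPY against SPG, while SPY and RS overlapped. UBE2C had 83.9, 80.0 and 84.5 CPM in SPG, 115, 99.2 and 126 CPM in SPY, and 39.4, 25 and 32.5 CPM in RS. RS was the lowest stage, with a log2 change of -1.81 ± 0.16 (edgeR, adjusted p = 2.18e-06) against SPY. The call of UBE2C in SPY against SPG (0.46 ± 0.16) was lost in 11 alternatives and its sign turned on TPM values. Of the 14 listed subunits and activators of the complex, 5 were higher and 6 lower in SPY against SPG, beside 29.3% and 44% of all genes. The share of lower calls there was near that of all genes. In RS against SPY 0 were higher and 11 lower, beside 42.7% and 36.4% of all genes. The core subunit CDC27 averaged 120 ± 1.30 CPM in SPG, 454 ± 54.0 CPM in SPY and 126 ± 24.0 CPM in RS.

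Among the enzymes of degradation at the endoplasmic reticulum, UBE2J1 had 79.0, 75.0 and 75.9 CPM in SPG, 96.5, 71.7 and 98.2 CPM in SPY, and 229, 219 and 220 CPM in RS. SPG and SPY overlapped and all RS libraries were higher, by 1.33 ± 0.13 (edgeR, adjusted p = 3.35e-06) against SPY. UBE2J2 was called lower at each step, at 154 to 156 CPM in SPG, 110 to 128 CPM in SPY and 71.5 to 103 CPM in RS, and its call in SPY against SPG was lost in 12 alternatives. UBE2G2 was lowest in SPY, at 12.6 to 12.8 CPM, against 21.2 to 23.6 CPM in SPG. UBE2O, a large enzyme that joins E2 and E3 activity, had the same low point, at 13.8 to 15.9 CPM in SPY against 27.5 to 28.8 CPM in SPG.

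The 3 listed E2 enzymes of other modifiers (UBE2M, UBE2L6 and UBE2Z) were all lower in SPY against SPG, where 44% of all genes were lower. The call of UBE2Z was lost in 12 alternatives and that of UBE2M against a 1.5-fold change. UBE2M, the E2 of NEDD8, had 325, 318 and 331 CPM in SPG, 211, 224 and 156 CPM in SPY and 83.7, 103 and 75.4 CPM in RS. Each stage lay below the one before it, with -0.72 ± 0.16 (edgeR, adjusted p = 0.00186) in SPY against SPG and -1.17 ± 0.16 (edgeR, adjusted p = 4.69e-05) in RS against SPY. UBE2L6, the E2 of the interferon-induced modifier ISG15, had 1.92, 1.73 and 1.71 CPM in SPG, 0.253, 0.314 and 0.472 CPM in SPY, and 7.22, 9.50 and 7.94 CPM in RS. Its rise of 4.56 ± 0.24 (edgeR, adjusted p = 4.76e-08) in RS against SPY, from low levels in SPY, was the largest of the UBE2 family. ISG15 itself averaged 83.4 ± 8.46 CPM in RS, against 0.337 ± 0.393 CPM in SPY. UBA7, the E1 of ISG15, averaged 1.69 ± 0.813 CPM in RS, against 5.33 ± 0.865 CPM in SPY. Leukocyte markers moved in the same direction as UBE2L6, with a sum of 17.5 to 20.1 TPM in RS against 1.01 to 2.77 TPM in SPY, as did the smooth muscle and Sertoli markers, and their part in the result was not tested.

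**Figure D3:**
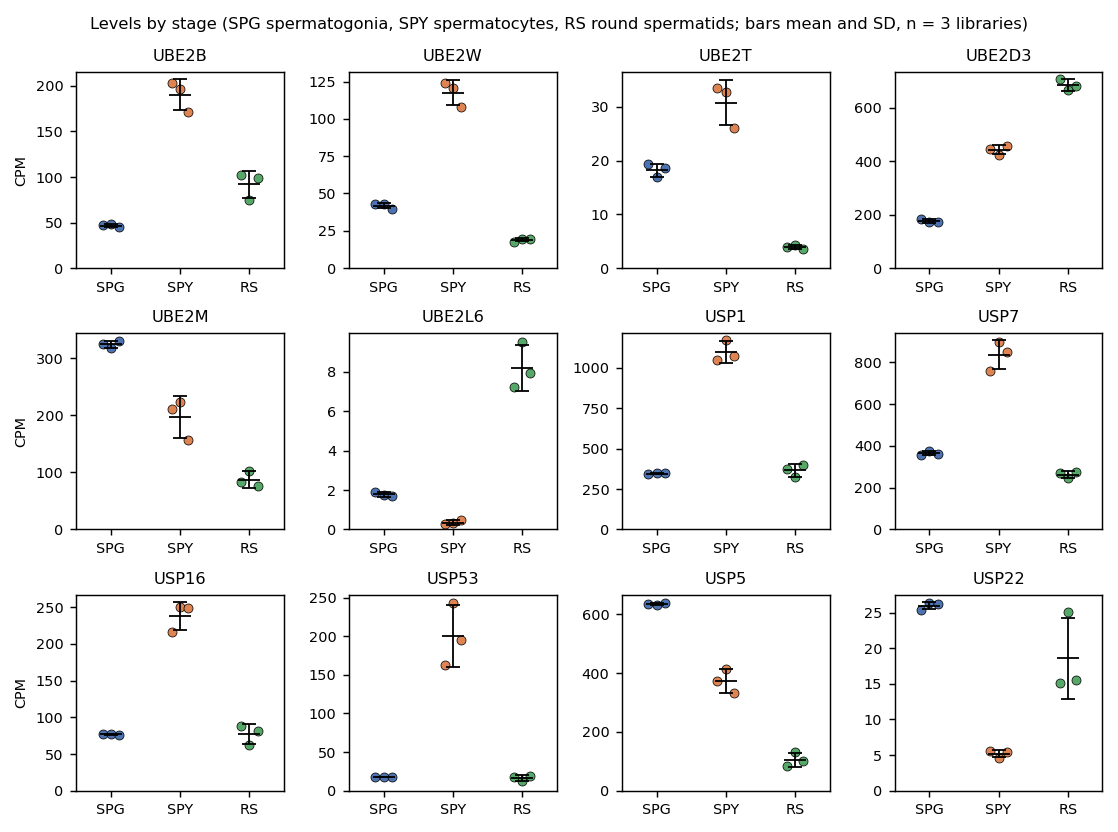
CPM per library (points) with mean and SD (bars, n = 3 libraries) for 6 UBE2 and 6 USP members, on linear axes from 0, with the stages in developmental order. UBE2B, UBE2W, USP1, USP7, USP16 and USP53 are highest in spermatocytes, UBE2M and USP5 lie lower at each stage, and UBE2L6 and USP22 are lowest in spermatocytes.

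In the USP family, most listed members of DNA repair and checkpoint control were called higher in SPY against SPG and lower in RS against SPY. Of the 9 measured, 7 were higher and 1 lower in SPY against SPG, where 29.3% of all genes were higher and 44% lower. In RS against SPY 1 was higher and 8 lower, where 42.7% of all genes were higher and 36.4% lower. USP1, which with its activator WDR48 takes ubiquitin off FANCD2 and PCNA, had 340, 347 and 347 CPM in SPG, 1046, 1170 and 1072 CPM in SPY, and 374, 323 and 396 CPM in RS. Every SPY library was above every other library, and SPG and RS overlapped. USP1 changed by 1.67 ± 0.11 (edgeR, adjusted p = 1.1e-06) in SPY against SPG and by -1.59 ± 0.11 (edgeR, adjusted p = 2.7e-07) in RS against SPY. WDR48 averaged 381 ± 2.47 CPM in SPG, 924 ± 95.6 CPM in SPY and 146 ± 10.2 CPM in RS. USP7, which acts on MDM2 and p53, had 356, 377 and 363 CPM in SPG, 759, 897 and 849 CPM in SPY, and 268, 244 and 276 CPM in RS. It was above SPG in every SPY library and below SPG in every RS library, with -1.67 ± 0.11 (edgeR, adjusted p = 1.48e-07) in RS against SPY. USP47, which acts on DNA polymerase beta, was also highest in SPY, at 138 to 141 CPM in SPG, 395 to 456 CPM in SPY and 92.7 to 141 CPM in RS.

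The largest change of the family in SPY was that of USP53 (chromosome 8), a protein of tight junctions. It had 17.2, 18.1 and 17.8 CPM in SPG, 162, 242 and 195 CPM in SPY, and 17.3, 12.4 and 19.4 CPM in RS. SPG and RS overlapped, and SPY was higher by log2 3.50 ± 0.20 (edgeR, adjusted p = 6.48e-07) against SPG, while RS was lower by log2 -3.61 ± 0.20 (edgeR, adjusted p = 6.17e-08) against SPY. USP33, which acts at the centrosome and on surface receptors, had 1.97, 2.02 and 1.77 CPM in SPG, 16.2, 15.7 and 15.7 CPM in SPY and 3.87, 4.24 and 5.63 CPM in RS. Its paralog USP20 had 88.0, 86.8 and 84.8 CPM in SPG, 104, 140 and 78.7 CPM in SPY, and 20.4, 23.8 and 23.0 CPM in RS. USP33 was higher in SPY against SPG by 3.05 ± 0.17 (edgeR, adjusted p = 5.76e-07), while USP20 was not called there (edgeR, adjusted p = 0.134) and its SPY and SPG libraries overlapped. USP37, which stabilises cyclin A at entry into S phase, had 34.5 to 38.8 CPM in SPG, 137 to 179 CPM in SPY and 26.5 to 36.0 CPM in RS. USP45, which acts on the repair nuclease ERCC1, had 1.12 to 1.26, 5.31 to 5.93 and 0.892 to 1.56 CPM in the same order. Counting these, 11 USP members were higher in SPY against SPG, lower in RS against SPY and not called in RS against SPG. They were USP1, USP16, USP28, USP37, USP40, USP42, USP44, USP45, USP47, USP48 and USP53. The last part depended on the scaling. On log2(TPM + 1) values USP1, USP16, USP42 and USP44 were called lower in RS against SPG, by -0.53, -0.62, -0.56 and -0.65. The median of all genes there was -0.59. A further 8 (USP7, USP12, USP21, USP24, USP34, USP39, USP54 and USP6NL) were likewise higher in SPY against SPG and lower in RS against SPY. These 8 ended lower in RS against SPG. The share of all genes with either pattern is not given, so these counts show nothing particular to the family.

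Peptidases that act on ubiquitinated histones had calls in both directions. Of 10 listed members, 5 were higher and 3 lower in SPY against SPG (29.3% and 44% of all genes), and 6 were higher and 4 lower in RS against SPY (42.7% and 36.4% of all genes), so the share of lower calls in RS was near that of all genes. USP16, which takes ubiquitin off histone H2A, had 76.8, 77.6 and 76.6 CPM in SPG, 216, 250 and 249 CPM in SPY, and 87.8, 61.7 and 81.5 CPM in RS. SPY was the highest stage, by 1.63 ± 0.14 (edgeR, adjusted p = 3.81e-06) against SPG. USP22, the H2B peptidase of the SAGA complex, had 25.4, 26.3 and 26.2 CPM in SPG, 5.52, 4.62 and 5.42 CPM in SPY, and 15.1, 25.1 and 15.6 CPM in RS. SPY was its lowest stage, by -2.32 ± 0.20 (edgeR, adjusted p = 4.22e-06) against SPG and with 1.84 ± 0.20 (edgeR, adjusted p = 8.12e-06) in RS against SPY. The TPM ratio of USP16 to USP22 was 12.4 to 12.8 in SPG, 166 to 230 in SPY and 10.4 to 24.7 in RS. USP44, which acts on H2B and at the spindle checkpoint, had 83.6, 83.6 and 85.5 CPM in SPG, 159, 150 and 213 CPM in SPY and 85.8, 69.5 and 90.3 CPM in RS. It followed USP16, at 1.05 ± 0.15 (edgeR, adjusted p = 0.000122) in SPY against SPG. USP3, an H2A peptidase, had 14.1 to 15.5 CPM in SPG, 10.8 to 16.6 CPM in SPY and 21.0 to 22.8 CPM in RS. It was higher in RS against SPY by 0.72 ± 0.16 (edgeR, adjusted p = 0.00163), a call lost on TPM values and against a 1.5-fold change. USP49, which acts on H2B, was lowest in SPY like USP22, at 6.33 to 8.34 CPM in SPY against 15.6 to 16.7 CPM in SPG. USP42, of the same list, followed USP16, at 150 to 154 CPM in SPG, 255 to 301 CPM in SPY and 138 to 172 CPM in RS. Outside the list, USP46, a partner of WDR48, was also lowest in SPY, at 2.77 to 3.38 CPM against 6.97 to 7.43 CPM in SPG. Of the cofactors listed for USP enzymes, 3 of 7 were higher and 3 lower in each of these 2 comparisons.

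The 5 members called lower at each step (USP5, USP19, USP30, USP31 and USP35) were led by USP5, which takes free ubiquitin chains apart. The share of all genes called lower at each step is not given. In SPY against SPG the calls of USP30, USP35 and USP31 were lost in 5, 3 and 1 alternatives, and that of USP19 in 0. USP5 had 636, 634 and 640 CPM in SPG, 373, 414 and 333 CPM in SPY and 83.1, 131 and 102 CPM in RS. No stages overlapped, with -0.77 ± 0.16 (edgeR, adjusted p = 0.00127) in SPY against SPG, a call lost against a 1.5-fold change, and -1.83 ± 0.16 (edgeR, adjusted p = 1.75e-06) in RS against SPY. Its paralog USP13 had 26.3, 26.1 and 25.7 CPM in SPG, 10.5, 4.33 and 12.6 CPM in SPY and 15.6, 19.5 and 15.4 CPM in RS, with its lowest libraries in SPY. USP14, the peptidase of the proteasome, was the 1 member called in none of the comparisons, at 22 to 24.1 CPM in SPG, 22.9 to 27.3 CPM in SPY and 20.3 to 26.6 CPM in RS. USP19, anchored in the endoplasmic reticulum, had 311 to 322, 153 to 180 and 68.4 to 101 CPM, and USP30, of the outer mitochondrial membrane, had 77.5 to 79.2, 56.5 to 57.5 and 35.2 to 45.0 CPM in stage order.

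USP4 and USP12 fell in RS. USP4 had 244, 249 and 243 CPM in SPG, 260, 269 and 247 CPM in SPY and 60.0, 90.5 and 60.2 CPM in RS, a log2 change of -1.88 ± 0.16 (edgeR, adjusted p = 1.24e-06) against SPY. USP12 had 237 to 243, 287 to 345 and 77.6 to 104 CPM, with -1.84 ± 0.13 (edgeR, adjusted p = 3.17e-07). USP15, a paralog of USP4, had 36.2 to 37.5 CPM in SPG, 75.2 to 79.4 CPM in SPY and 56.5 to 67.2 CPM in RS. Large proteins of the family with the same peak in SPY were USP34, at 204 to 227, 471 to 655 and 124 to 155 CPM in stage order, and USP24, at 35.6 to 39.7, 59.4 to 88.8 and 16.3 to 19.7 CPM. USP39, a spliceosome protein, had 67.0 to 67.6, 105 to 128 and 36.7 to 40.1 CPM. Calls of smaller size in SPY against SPG, those of USP12, USP21, USP36, USP38 and USP54, were lost in 5 to 10 alternatives each.

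Members highest in RS were fewer in the USP than in the UBE2 family. USP36, a nucleolar peptidase, had 10.5, 12.1 and 11.2 CPM in SPG, 15.2, 12.6 and 16.8 CPM in SPY, and 33.6, 31.5 and 38.7 CPM in RS. The RS libraries were above all others, by 1.22 ± 0.14 (edgeR, adjusted p = 1.52e-05) against SPY. USP10, which acts on p53, had 25.6 to 26.0, 30.3 to 36.8 and 47.6 to 72.1 CPM, with 0.94 ± 0.16 (edgeR, adjusted p = 0.000291) in RS against SPY. USP18, which removes ISG15, had 3.25, 3.49 and 3.44 CPM in SPG, 1.49, 0.770 and 1.10 CPM in SPY and 5.96, 6.44 and 6.31 CPM in RS. It was lowest in SPY and highest in RS, as UBE2L6 was, with 2.48 ± 0.22 (edgeR, adjusted p = 1.72e-06) in RS against SPY, beside the same marker sums. USP25 had 37.6 to 38.3 CPM in SPG, 27.5 to 64.7 CPM in SPY and 50.4 to 66.7 CPM in RS, and was called in RS against SPG alone, a call lost in 10 alternatives. USP43 was low throughout, at 2.61 to 3.24 CPM in SPG, 1.19 to 1.75 CPM in SPY and 1.73 to 1.93 CPM in RS. USP2 had 446 to 454 CPM in SPG, 300 to 390 CPM in SPY and 262 to 352 CPM in RS. Its call in SPY against SPG (-0.38 ± 0.13) was lost in 11 alternatives.

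USP8 and USP50 lie side by side on chromosome 1 and their gene models overlap (RefSeq Sscrofa11.1, USP50 at 121272977 to 121307029 and USP8 at 121306031 to 121376154). USP8, a peptidase of endosomes, had 23.1, 23.3 and 22.1 CPM in SPG, 59.6, 72.2 and 75.1 CPM in SPY, and 57.7, 25.3 and 61.6 CPM in RS. USP50 had 152, 148 and 148 CPM in SPG, 39.6, 18.3 and 57.5 CPM in SPY, and 94.6, 81.5 and 85.2 CPM in RS. The neighbours moved in opposite directions in SPY against SPG, by 1.60 ± 0.28 (edgeR, adjusted p = 0.000427) for USP8 and -1.96 ± 0.32 (edgeR, adjusted p = 0.000274) for USP50. Whether counting used strand is not given in the sources used here, so reads in the overlap could fall to either gene.

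UBE2E1 and UBE2NL had no chromosome by symbol and are left out here. The members placed on the X chromosome did not share the SPY peak. Of 5 (UBE2A, USP9X, USP11, USP27X and USP51), 0 were higher and 3 lower in SPY against SPG, where 10.4% of 415 X-linked genes were higher and 56.9% lower, against 30.2% and 44.0% of 12252 autosomal genes. In RS against SPY all 5 were higher, as were 81.0% of X-linked and 42.4% of autosomal genes. USP27X and USP51 had so few counts in SPG and SPY that they passed the filter through RS. Their higher calls in RS therefore carry no weight. USP11 had 51.6, 51.0 and 50.3 CPM in SPG, 12.8, 10.1 and 15.4 CPM in SPY, and 46.6, 57.9 and 45.0 CPM in RS. SPY was the lowest stage and SPG and RS overlapped, with -2.00 ± 0.16 (edgeR, adjusted p = 3.35e-06) in SPY against SPG and 1.96 ± 0.16 (edgeR, adjusted p = 1.19e-06) in RS against SPY. USP9X had 34.3, 39.1 and 34.8 CPM in SPG, 32.3, 32.0 and 57.9 CPM in SPY, and 70.8, 68.9 and 70.4 CPM in RS. SPY 4 stood above the SPG libraries, SPY 2 and SPY 3 below them, and SPY against SPG was not called (edgeR, adjusted p = 0.459). USP9X was higher in RS against SPY by 0.78 ± 0.21 (edgeR, adjusted p = 0.00521), a call lost against a 1.5-fold change. USP27X was near the limit of detection, at 0.141 to 0.260 CPM in SPG, 0.0411 to 0.105 CPM in SPY and 0.795 to 1.03 CPM in RS. Its lower call in SPY against SPG was lost in 3 alternatives. USP51 had 2.64, 0.877 and 5.22 estimated counts in SPG, 0, 0 and 2 in SPY, and 23.8, 7.82 and 10.1 in RS, and no fold is given for it.

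**Figure D4:**
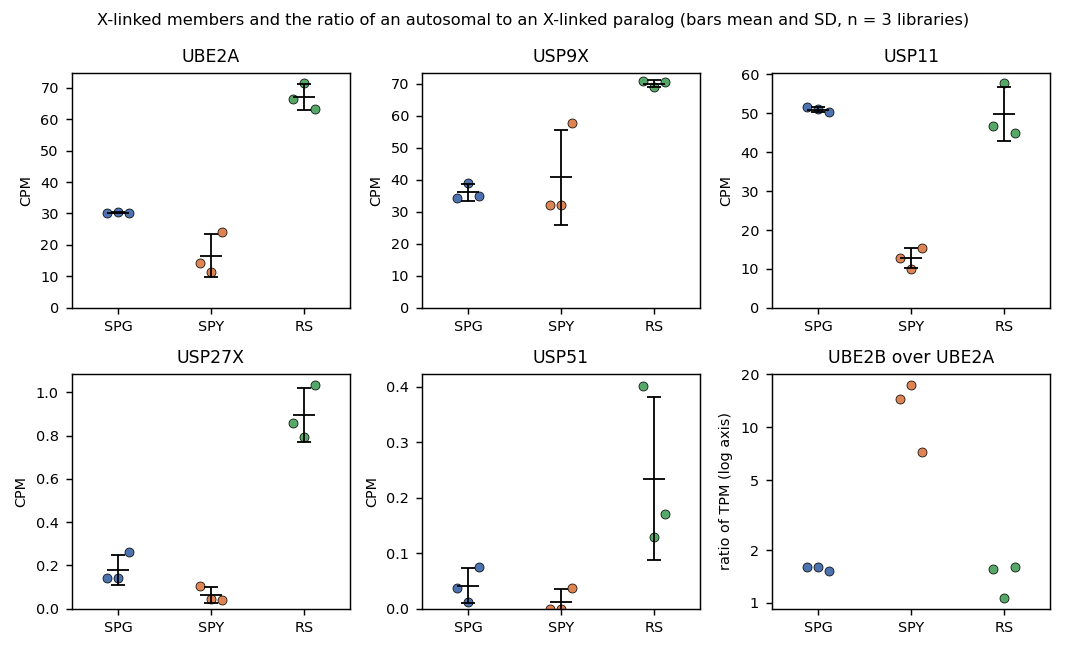
CPM per library (points) with mean and SD (bars, n = 3 libraries) of the 5 X-linked members by stage, and the TPM ratio of UBE2B to UBE2A on a log axis. UBE2A and USP11 are lowest in spermatocytes, all 5 are higher in round spermatids than in spermatocytes, and the ratio is 7.21 to 17.4 in spermatocytes against 1.52 to 1.60 in spermatogonia. USP27X and USP51 passed the filter on low counts through round spermatids.

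Genes of the same pathway outside the families were taken from 9 lists with 141 measured genes, whose counts stand beside 29.3% higher and 44% lower of all genes in SPY against SPG and 42.7% and 36.4% in RS against SPY. The ubiquitin gene UBB was called lower in SPY against SPG, with an average of 678 ± 35.9 CPM in SPY and 1649 ± 27.5 CPM in SPG. Of 9 E1 enzymes, 4 were higher and 3 lower in SPY against SPG, and 2 higher and 6 lower in RS against SPY. UBA1, the main E1 of ubiquitin, averaged 42.4 ± 14.3 CPM in SPY and 195 ± 2.31 CPM in SPG, while NAE1, a subunit of the E1 of NEDD8, averaged 84.5 ± 20.8 and 20 ± 0.437 CPM. In the cullin ligase core, 14 of 23 genes were higher and 5 lower in SPY against SPG, and 3 higher and 17 lower in RS against SPY. Of 33 listed E3 ligases, 17 were higher and 7 lower in SPY against SPG, and 4 higher and 22 lower in RS against SPY. ITCH averaged 42.8 ± 4.35 CPM in RS and 225 ± 25.4 CPM in SPY, and UBE3A averaged 184 ± 25.2 CPM in SPY and 58.8 ± 0.638 CPM in SPG.

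**Figure D5:**
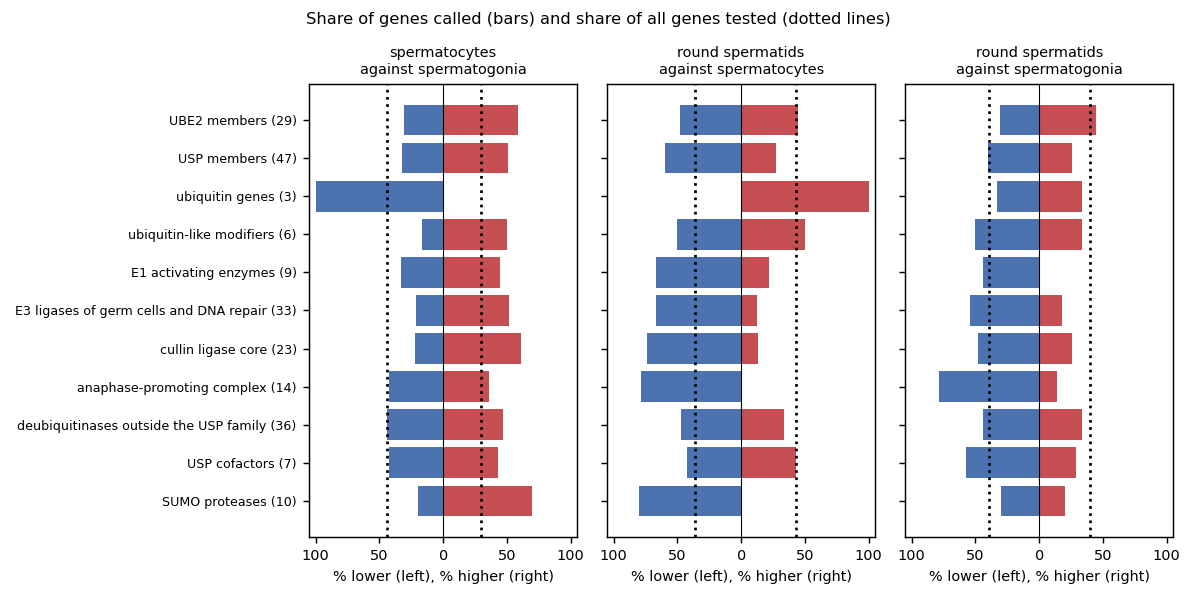
Percent of measured genes called lower (left bars) and higher (right bars) in each comparison, for the 2 families and 9 pathway lists (number measured in brackets); dotted lines give the percent of all genes tested, such as 29.3% higher and 44% lower in spermatocytes against spermatogonia. The cullin and E3 lists lie past the dotted line for higher calls there and past the line for lower calls (36.4%) in round spermatids against spermatocytes, on the scaling by TMM factors.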

How the data were processed

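The authors deposited a table of estimated counts and a table of TPM values per gene for bulk RNA-seq of testicular cells. The library kit is directional and the sequencing paired-end per the labels' protocols, and the genome build is Sscrofa11.1 per the submitters' processing notes. Which aligner, quantification program and gene annotation the authors ran is not given in these sources. The 9 columns used of 15 were matched to samples by heading and number (c-kit to SPG, Pachy to SPY, RS to RS), a reading of the headings that the labels do not state; 6 were not used. Symbols were available for 14749 of 22342 identifiers, and chromosomes came from RefSeq by symbol for 13685.

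Estimated counts were rounded to whole numbers, filtered with filterByExpr, scaled by TMM (factors 0.774 to 1.26) and fitted over all 9 libraries with edgeR 4.0.16 (glmQLFit, glmQLFTest; R 4.3.3), with Benjamini-Hochberg adjustment over 16802 genes. Ratios and sums used deposited TPM. On simulated counts, 87% of 2-fold and 100% of 4-fold changes were recovered in each comparison. False calls numbered 10 to 13, where 16561 to 16564 genes were tested, the changed ones included. The simulation changed few genes, up and down alike, all above 1 CPM, and gave all stages the same trend of spread. In the data 73.4% to 79.2% of genes were called and RS 2 stood apart, so these rates may not hold there. Alternatives used DESeq2 1.42.0 and limma 3.58.1. Members, gene lists and tests were chosen with earlier results of these data known. Named genes were the largest called changes of each family and comparison (a mean of 5 CPM or more where higher, stages not overlapping), the 3 members of highest TPM per stage, members with known roles, and 1 called gene each way per pathway list; other members given values were chosen after their values were seen. The ± beside a log2 change is the standard error from the edgeR fit, and the ± beside a mean CPM or TPM is the SD between libraries. No sequences are shown. Some items are not reported here.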

Additional observations from a re-analysis of the deposited data

How the results depend on the processing

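Values were recomputed under 21 alternatives, fewer for USP27X and USP51 where a setting gave no value. Of the named members called in SPY against SPG, 24 of 32 kept their call and direction under all of them, as did 28 of 32 in RS against SPY and 18 of 29 in RS against SPG. No such share is given for all genes. The counts of RS against SPY for both families stayed within 1.5 times under every alternative. In SPY against SPG, higher UBE2 members (17) numbered 8 with library totals alone, 8 with either TPM fit, 8 against a 1.5-fold change, 9 with the SPG libraries summed to 1 sample, and 10 to 17 when single libraries were left out (11 without SPG 1, 10 without SPG 2, 11 without SPG 3 and 11 without SPY 2). Lower UBE2 members (9) numbered 5 against a 1.5-fold change, and higher USP members (24) 14 with either TPM fit. In RS against SPG, higher and lower UBE2 members (13 and 9) numbered 8 and 14 on log2(TPM + 1), with 8 higher on log2(TPM + 0.1). Higher and lower USP members (12 and 19) numbered 4 and 30 with either TPM fit, 5 higher with the SPG libraries summed, and 10 lower against a 1.5-fold change. Pathway genes higher in SPY against SPG numbered 46 with library totals, 36 with either TPM fit and 46 against a 1.5-fold change (26 lower), those higher in RS against SPY 19 against that fold, and those higher in RS against SPG 13 with either TPM fit and 21 with the SPG libraries summed. All genes higher in SPY against SPG numbered 2458 and 2453 with the TPM fits and 3228 with the SPG libraries summed, and in RS against SPG 3842 and 3764 with the TPM fits. Summed TPM rescaled to equal totals, chosen after seeing the data, was 4095 (SPG) and 4340 (SPY) for UBE2 and 2861 (SPG) for USP. Leaving out USP6NL, also chosen after seeing the data, gave 23 higher USP members in SPY against SPG. The cause of these shifts was not tested.

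Small log2 changes turned sign. For SPY against SPG, with library totals, log2(TPM + 1) and log2(TPM + 0.1) in turn, the values were -0.045, -0.13 and -0.14 (UBE2D1), -0.20, -0.32 and -0.32 (UBE2J1), -0.29, -0.37 and -0.39 (USP14), -0.085, -0.27 and -0.29 (USP25), and -0.23, -0.36 and -0.40 (USP9X). On the TPM scales UBE2C gave -0.075 and -0.075. USP9X was -0.17 to 0.32 with single libraries left out (-0.17 without SPY 4) and -0.18 with the replicate block. USP3 was 0.0016 with RLE, 0.044 with no filter, 0.0018 with DESeq2 and 0.025 with only these stages fitted. In RS against SPY, library totals gave 0.41 (UBE2S), 0.33 (USP14) and 0.28 (USP2), and single libraries left out gave -0.27 to 0.037 for UBE2S. In RS against SPG, the TPM scales gave -0.31 and -0.31 (UBE2V1), -0.53 and -0.54 (USP1), -0.059 and -0.071 (USP3), and -0.56 and -0.57 (USP42). With RLE, library totals, the 1 CPM filter, DESeq2 and only these stages fitted, the values were 0.045, 0.022, 0.0086, 0.045 and 0.022 (USP11), 0.061, 0.039, 0.024, 0.061 and 0.038 (USP14), and 0.067, 0.022, 0.040, 0.067 and 0.040 (USP16). With no filter USP14 and USP16 gave 0.011 and 0.013. Single libraries left out gave -0.15 to 0.028 (USP11), -0.15 to 0.047 (USP14), -0.10 to 0.14 (USP16), -0.033 to 0.13 (USP42) and -0.13 to 0.064 (USP44). USP44 gave 0.028 with RLE, 0.028 with DESeq2 and 0.0011 with only these stages fitted, and USP42 -0.032 with the SPG libraries summed. Of these, UBE2C and UBE2D1 in SPY against SPG and USP3 in RS against SPG had been called with the settings of the report. Over all members, 7 UBE2 and 4 USP members called higher in SPY against SPG turned sign under at least 1 alternative, as did 1 USP call in RS against SPY and 2 in RS against SPG.

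Deviations of same-numbered libraries correlated at -0.0483 to 0.0283, and those of differently numbered libraries at -0.0903 to 0.0930. The SPG libraries differed little more than counting alone would give, so this could not show whether the numbers mark shared animals. With the replicate block, UBE2 counts were 13 higher and 7 lower in SPY against SPG and 11 and 14 in RS against SPY, and UBE2V2 (RS against SPY) had an adjusted p of 0.0528 in edgeR. No member symbol had several identifiers, so that alternative gives no separate value. Depth limits USP27X and USP51 only.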

Other observations

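Deubiquitinases outside the USP family, 36 measured, had calls in both directions. For SPY against SPG 17 were higher and 16 lower, beside 29.3% and 44% of all genes, and in RS against SPY 12 were higher and 17 lower, beside 42.7% and 36.4% of all genes. OTUD6B averaged 44.3 ± 0.632 CPM in SPG, 403 ± 43.6 CPM in SPY and 42.3 ± 10.9 CPM in RS. UCHL1, which also marks spermatogonia, averaged 1.71 ± 0.674 CPM in SPY, against 26.1 ± 1.36 CPM in SPG. TNFAIP3, a peptidase that dampens NF-kappaB signalling, averaged 123 ± 5.40 CPM in RS, against 6.22 ± 1.76 CPM in SPY, beside the higher leukocyte and smooth muscle marker sums in RS, whose part was not tested.

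Proteases of the related modifier SUMO had most of their calls higher in SPY and lower in RS. Of 10, 7 were higher and 2 lower in SPY against SPG, and 0 were higher and 8 lower in RS against SPY, with the same shares of all genes beside them. SENP6, which trims SUMO chains, averaged 103 ± 2.32 CPM in SPG, 528 ± 46.0 CPM in SPY and 167 ± 28.2 CPM in RS. Of 6 other modifiers measured, 3 were higher and 1 lower in SPY against SPG. NEDD8 averaged 19.0 ± 2.28 CPM in SPY and 46.2 ± 1.42 CPM in SPG.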
